A study of Mus musculus with 24 samples.

Results

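Acid-sensing ion channels (Asic genes) and Piezo channels were followed in sorted dorsal root ganglion (DRG) neurons with and without Tsc2. The members were the 6 genes Asic1, Asic2, Asic3, Asic4, Piezo1 and Piezo2, taken by their symbols from the 47643 genes of the count files. RNA-seq libraries had been made from GFP-positive cells of the L4 DRG on the side opposite to a sciatic nerve crush, 3 d after the injury, in male and female mice aged 8 to 9 weeks on a mixed C57BL/6 and AJ background. All mice carried Nav1.8-Cre and the Rosa26-ZsGreen reporter. Control mice had the Tsc2 genotype flox/+ and Nav-Tsc2 mice had flox/null. The control cells had 1 recombinable Tsc2 allele, and Nav-Tsc2 mice carried the null allele in every tissue. Cre from the Nav1.8 locus acts mainly in nociceptors and also in some other sensory neurons, so the libraries hold a mixture of neuron types. Each genotype had 4 mice (replicates 1 and 2 male, 3 and 4 female), and each mouse gave 3 libraries of 100 cells, whose counts were summed.

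Asic genes encode sodium channels of the degenerin family that open when the outside of the cell becomes acidic, and their subunits assemble as trimers. Asic3 is the subunit best known from sensory neurons that respond to acid in muscle and heart, Asic1 is found in both brain and DRG, Asic2 mainly modifies the channels it joins, and Asic4 does not form an acid-gated channel by itself. Piezo proteins are very large trimeric channels opened by membrane stretch. Piezo2 is the main channel of light touch and limb position sense in DRG neurons, while Piezo1 is best known from blood vessels, red blood cells and other non-neuronal cells.

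Gene counts summed per mouse ranged from 47959617 to 61290435, and single libraries held 8339220 to 34228180. Tsc2 itself was 20.9 ± 5.18 CPM (counts per 1000000 gene counts, with library sizes adjusted by TMM; SD, n = 4) in control and 8.87 ± 1.52 CPM in Nav-Tsc2 mice, without overlap. The defining gene of the sorted population, Scn10a (Nav1.8), was at 509.7 to 790.8 CPM in control and 577.2 to 658.2 CPM in Nav-Tsc2 mice, and its log2 fold change was -0.14 (edgeR adjusted p = 0.526). Of 6 markers of the sorted neurons, Snap25 was called lower and Prph higher. The libraries of a mouse are separate sorts of its cells. CPM is a share of all gene counts and gives no amount of RNA per cell. A lower CPM can come with fewer cells that express a gene, less of its RNA per cell, or more RNA of other genes. These cannot be told apart here.

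Asic3, Asic1 and Piezo2 were lower in Nav-Tsc2 neurons, and no member was higher. Of the 5 members with enough counts to test, 3 were called lower, by the edgeR quasi-likelihood test with Benjamini-Hochberg adjustment over 17178 genes. A call needed an adjusted p below 0.05, and a log2 change beyond 0.5 or beyond -0.5. Among all genes tested, 8.00% were called lower and 9.12% higher. Asic4 had no count in any library. Asic2 and Piezo1 did not pass the test. The median log2 fold change of the 5 tested members was -1.08, and that of all genes tested was 0.01.

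The bases before the RefSeq start are given here for the Asic genes where that start lies beside sequence outside annotated exons. They are from GRCm38.p6, on the gene strand, 5′ to 3′, up to the first GENCODE exon. The Asic3 stretch is chr5:24413201-24413391 (plus strand). The Asic1 stretch is chr15:99691974-99692223 (plus strand) and lies inside the Asic1 gene, in an intron of a longer transcript. The Asic2 stretch is chr11:81968458-81968646 (minus strand), before the more distant of its RefSeq starts.
Asic3: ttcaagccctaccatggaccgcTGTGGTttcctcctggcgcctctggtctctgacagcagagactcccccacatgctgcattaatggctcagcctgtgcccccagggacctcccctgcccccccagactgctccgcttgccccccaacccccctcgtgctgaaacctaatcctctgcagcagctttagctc
Asic1: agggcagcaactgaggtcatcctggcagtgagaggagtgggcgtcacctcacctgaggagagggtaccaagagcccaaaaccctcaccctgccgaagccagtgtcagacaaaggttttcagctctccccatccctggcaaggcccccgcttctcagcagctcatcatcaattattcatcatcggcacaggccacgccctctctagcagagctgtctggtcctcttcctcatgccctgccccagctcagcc
Asic2: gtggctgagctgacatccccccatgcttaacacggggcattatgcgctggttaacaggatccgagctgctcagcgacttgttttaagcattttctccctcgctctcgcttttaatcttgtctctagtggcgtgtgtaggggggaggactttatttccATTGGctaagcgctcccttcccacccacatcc
Capitals mark matches on either strand to the TATA box (TATAAA), the GC box (GGGCGG), the CAAT box (CCAAT), the core bound by Runx factors (TGTGGT) or an E-box (CACGTG). The Asic3 stretch held TGTGGT, as do the first 191 bases of 11.08% of the 32851 RefSeq windows. The Asic2 stretch held CCAAT on the other strand, found in the first 189 bases of 26.54% of windows. The Asic1 stretch held none of these letters. Matches are descriptions of the letters in these windows. Which starts the sorted cells used was not examined, and no link to the levels was tested.

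Asic3 showed the largest change among the members. Its gene (ENSMUSG00000038276.12) lies at chr5:24413392-24417835 on the plus strand of GRCm38. Levels were 246.7, 269.7, 128.4 and 209.0 CPM in control mice 1 to 4 and 20.5, 34.8, 45.4 and 42.9 CPM in Nav-Tsc2 mice 1 to 4. Every Nav-Tsc2 mouse was below every control mouse, which held for 12.3% of all genes tested in this direction and for 14.6% in the other. The log2 fold change was -2.57 (SE 0.29, adjusted p = 0.000403), a level 5.94-fold lower. Of all genes tested, 1.84% were called lower with a log2 fold change of -2 or less.

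Asic1 was also lower. Its gene (ENSMUSG00000023017.9) lies at chr15:99670368-99701130 on the plus strand. Levels were 18.4, 28.9, 13.5 and 13.9 CPM in control mice and 6.01, 4.07, 3.30 and 4.06 CPM in Nav-Tsc2 mice. Again the groups did not overlap, and the 2 male controls were the highest of all. The log2 fold change was -2.10 (SE 0.30, adjusted p = 0.00126), or 4.29-fold lower.

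Asic2, by contrast, overlapped between the genotypes. Its gene (ENSMUSG00000020704.13) spans chr11:80880169-81968457 on the minus strand. Levels were 38.2, 34.8, 81.0 and 66.1 CPM in control and 52.2, 47.5, 44.3 and 57.9 CPM in Nav-Tsc2 mice, so that the control females were the highest and the control males the lowest. The log2 fold change was -0.12 (SE 0.26, adjusted p = 0.785), with an approximate 95% interval of -0.63 to 0.38 from the SE.

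Asic4 (ENSMUSG00000033007.15; chr1:75450436-75474343, plus strand) had 0 of 442735812 gene counts, which allows a level of up to 0.00678 CPM over all 24 libraries. Limits of this kind cover counting error only, since the reads carried no molecular identifiers. Of its exon sequence, 18.08% is shared with the antisense gene Gm37264. Strand was not stated for the counting, so reads there may not have been counted, and the limit holds only for sequence that could be counted.

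Piezo2 was lower in all 4 Nav-Tsc2 mice. The gene (ENSMUSG00000041482.16) lies on the minus strand of chromosome 18. Levels were 203.4, 180.7, 316.2 and 333.2 CPM in control and 118.1, 111.8, 116.7 and 144.0 CPM in Nav-Tsc2 mice. The groups did not overlap, and the control females exceeded the control males. The log2 fold change was -1.07 (SE 0.20, adjusted p = 0.00489), or 2.11-fold lower.

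Piezo1 was close to the limit of detection in both genotypes. The gene (ENSMUSG00000014444.16; chr8:122481698-122551329, minus strand) shares 24.57% of its exon sequence with the antisense gene Ctu2, and strand was not stated for the counting, so reads there cannot be assigned with certainty. Control mice had 0.00, 0.871, 0.416 and 0.181 CPM and Nav-Tsc2 mice 0.329, 0.318, 0.327 and 0.169 CPM, with overlap. The log2 fold change was -0.36 (SE 1.05, adjusted p = 0.855). Its approximate 95% interval, -2.41 to 1.69, is too wide for any statement on direction.

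**Figure D1:**
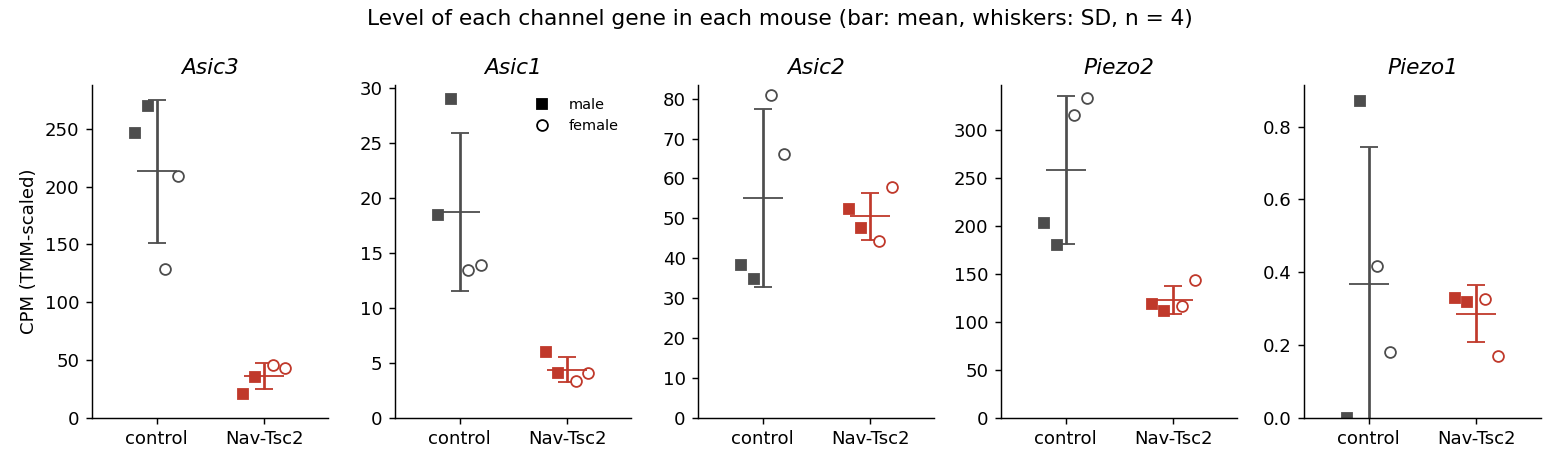
Level of each detected member in CPM (vertical axes from 0, a separate scale per gene) in 4 control and 4 Nav-Tsc2 mice; squares are males, open circles females, the short bar is the mean and the whiskers the SD. Asic3, Asic1 and Piezo2 do not overlap between genotypes, while Asic2 and Piezo1 do.

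Single libraries were compared as a description, since those of a mouse are not independent. No share over all genes was counted. For Asic3, 11 of 12 control libraries were above every Nav-Tsc2 library (control 35.9 to 337.4 CPM, median 225.5; Nav-Tsc2 8.59 to 58.9 CPM, median 34.5). For Piezo2, 10 of 12 control libraries were above every Nav-Tsc2 library (control 104.6 to 412.5 CPM, Nav-Tsc2 50.4 to 185.5 CPM). For Asic1, 10 of 12 control libraries lay above all Nav-Tsc2 libraries, and all 12 Nav-Tsc2 libraries lay below the control median of 16.5 CPM. No Nav-Tsc2 library lay below every control library for Asic1.

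One control library stood apart for the acid-sensing genes. Library A of control mouse 3 had 4 counts of Asic1 (0.312 CPM) and 460 of Asic3 (35.9 CPM), the lowest control values of both, while its Asic2 (108.6 CPM) was the highest of all 24 libraries and its Piezo2 (343.2 CPM) was among the higher control values. Leaving this library out, a choice made after its values were seen, gave log2 fold changes of -2.18 for Asic1, -2.63 for Asic3 and -1.07 for Piezo2, all still called. Among the 4 members above 1 CPM, libraries of the same mouse varied most for Asic1, with a mean coefficient of variation of 71.1% in control and 66.2% in Nav-Tsc2 mice. For Piezo2 it was 19.7% in control and 32.2% in Nav-Tsc2 mice.

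**Figure D2:**
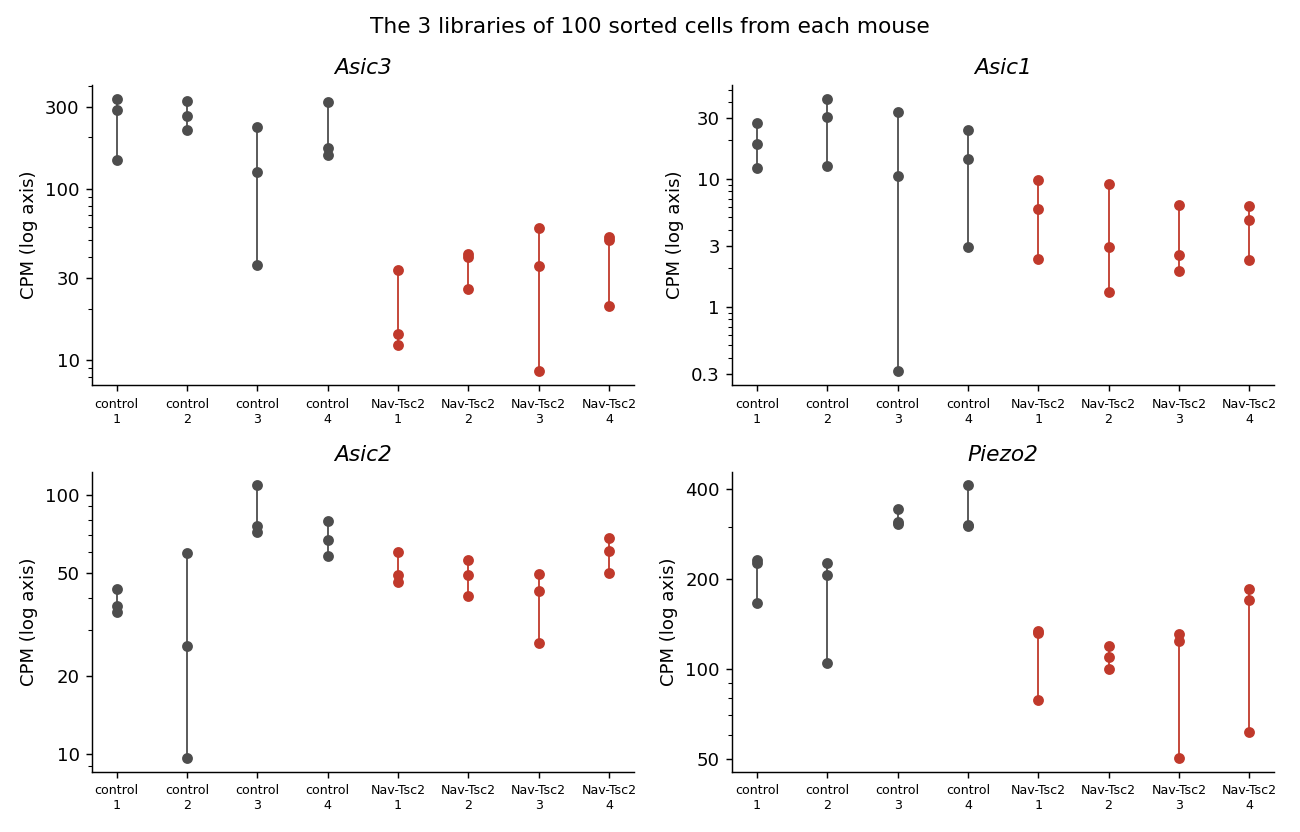
CPM (log axes) of Asic3, Asic1, Asic2 and Piezo2 in the 3 libraries of each mouse, joined by a line; control mice are grey and Nav-Tsc2 mice red. Asic1 ranges most within a mouse, and control mouse 3 holds the lowest Asic1 library, at 0.312 CPM.

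Levels of different genes were compared per kilobase of exon sequence, as a description. Exon sequence shared with antisense genes was kept in the lengths of Piezo1 and Asic4. In control neurons the order was Asic3 (88.1 ± 25.6 CPM per kb, SD, n = 4), Piezo2 (15.1 ± 4.51), Asic2 (12.9 ± 5.23), Asic1 (3.25 ± 1.25), Piezo1 (0.0369 ± 0.0379) and Asic4 (0). Over the 4 control mice, Asic3 was above Piezo2 without overlap and Asic2 was above Asic1 without overlap, while Piezo2 and Asic2 overlapped. In Nav-Tsc2 neurons the order was Asic3 (14.8 ± 4.63 CPM per kb), Asic2 (11.8 ± 1.39), Piezo2 (7.15 ± 0.844), Asic1 (0.759 ± 0.201), Piezo1 (0.0288 ± 0.00784) and Asic4 (0). There Asic3 and Asic2 overlapped, and Asic2 was above Piezo2 in every mouse.

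The makeup of the acid-sensing transcripts shifted with these levels. Summed over the 4 Asic genes, control mice had 104.3 ± 21.6 CPM per kb and Nav-Tsc2 mice 27.4 ± 4.46. Asic3 made up 83.2 ± 8.53% of this sum in control and 53.0 ± 10.2% in Nav-Tsc2 mice, with ranges of 71.3 to 89.4% and 38.9 to 63.1%. Asic2 made up 13.7 ± 8.71% in control and 44.1 ± 8.90% in Nav-Tsc2 mice, also without overlap (6.55 to 25.6% against 35.0 to 56.3%). The Asic1 share was 3.09 ± 0.728% in control and 2.91 ± 1.30% in Nav-Tsc2 mice, with overlap. These shares follow from the levels above and are not a separate test.

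**Figure D3:**
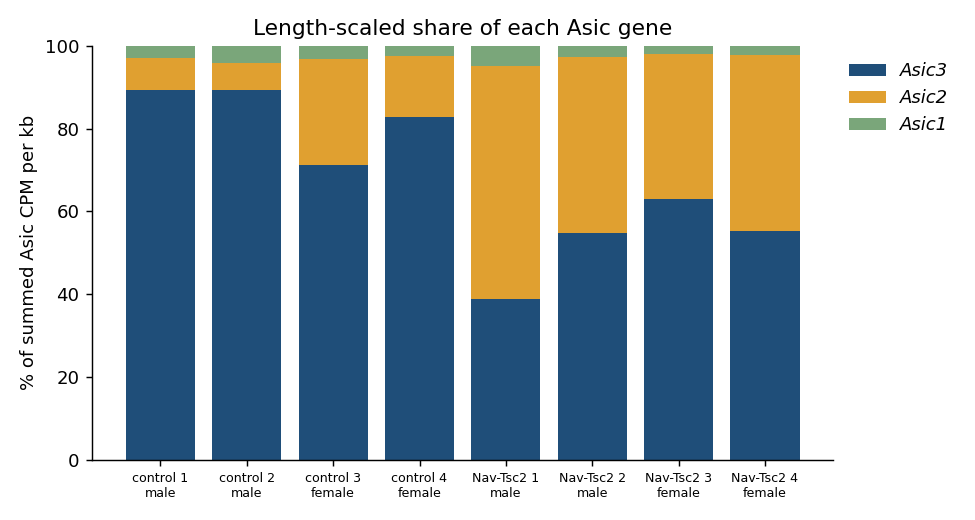
Share of each Asic gene (%, stacked bars, one bar per mouse) in the summed CPM per kb of the 4 Asic genes, of which Asic4 is at 0. Asic3 holds 71.3 to 89.4% in control mice and 38.9 to 63.1% in Nav-Tsc2 mice, and Asic2 takes up most of the rest.

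No interaction of genotype and sex passed the test for a member. Within each sex, both Nav-Tsc2 mice were below both controls for Asic3, Asic1 and Piezo2. That order follows from the lack of overlap over all mice and is not a separate result. Asic3 averaged 258.2 CPM in control and 27.6 CPM in Nav-Tsc2 males, and 168.7 and 44.2 CPM in females. Its interaction (male minus female effect) was -1.29 on the log2 scale (SE 0.40, p = 0.0125 unadjusted and 0.383 adjusted by edgeR). Piezo2 averaged 192.0 and 114.9 CPM in males and 324.7 and 130.4 CPM in females. Its interaction was 0.58 (SE 0.18, p = 0.0135 unadjusted and 0.391 adjusted by edgeR).

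For Asic2 the levels lay in opposite directions in the sexes. Both Nav-Tsc2 males were above both control males (means of 49.8 and 36.5 CPM), and both Nav-Tsc2 females were below both control females (51.1 and 73.6 CPM). Its interaction was 0.97 (SE 0.25, p = 0.00450 unadjusted, 0.304 adjusted by edgeR). Of all genes tested, 9.22% had an unadjusted interaction p under 0.05 and 0.00582% passed after adjustment. There were 2 mice per sex and genotype, and sex and replicate number cannot be told apart. The share of all genes with opposite directions in the sexes was not counted. Among controls, the 4 nonpeptidergic nociceptor markers were also lower in the males, with Mrgprd at 56.0 and 21.85 against 324.8 and 232.7 CPM. Their part in the Asic2 values was not tested. Without the low-count filter the interactions of Asic3 (adjusted p = 1.77e-06) and Asic2 (adjusted p = 0.0158) passed in edgeR, as did 2.05% of the 30194 genes then tested.

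Genes of the same pathways, from 4 lists, were counted next. Of the 34 listed genes, 23 had enough counts to test, 5 were called lower and 3 higher. Among 12 partners and regulators of Asic and Piezo channels, 11 were tested. Lin7b, a scaffold protein gene of the Lin7 family, fell from 12.2 ± 1.26 to 2.43 ± 0.379 CPM (log2 fold change -2.32, SE 0.21, edgeR adjusted p = 0.000118). Stom, which encodes stomatin, a membrane protein that binds Asic channels, rose from 19.9 ± 9.78 to 60.5 ± 13.5 CPM (log2 fold change 1.61, adjusted p = 0.0116 by edgeR). Mdfic, whose protein binds Piezo channels, rose from 0.251 ± 0.192 to 2.15 ± 1.33 CPM (log2 fold change 3.10, adjusted p = 0.0150 by edgeR), a low level in both groups. Without Nav-Tsc2 mouse 3 the Mdfic value was 2.57 (adjusted p = 0.0506 by edgeR) and the call was lost, and without control mouse 2 it was 3.71.

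The other 8 tested partners were not called. Pick1, which binds Asic1 and Asic2, was 6.19 ± 0.642 CPM in control and 6.53 ± 1.46 CPM in Nav-Tsc2 mice. Tmem150c, a modulator of mechanically activated currents, was 36.9 ± 4.47 and 26.1 ± 3.74 CPM, with an adjusted p of 0.0308 by edgeR but a log2 fold change of -0.50 that did not reach the limit. Stoml3, a stomatin relative that sensitises Piezo currents, was at 0.352 ± 0.253 and 0.546 ± 0.442 CPM. The median log2 fold change of the 11 was 0.02.

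Among 14 other mechanically or proton-gated channels, 10 were tested, 3 were lower and 1 was higher. The lower ones were all potassium channels with a pair of pore domains, which open with stretch. Kcnk2 (TREK-1) fell from 12.7 ± 3.84 to 6.19 ± 1.5 CPM (log2 fold change -1.04). Kcnk4 (TRAAK) fell from 6.68 ± 4.82 to 2.09 ± 0.511 CPM (log2 fold change -1.68). Kcnk10 (TREK-2) fell from 6.09 ± 1.08 to 2.27 ± 1.05 CPM (log2 fold change -1.43). Their edgeR adjusted p values were 0.0247, 0.0339 and 0.0249, and each lost its call when single mice were left out. Kcnk2 lost it without control mouse 1 or 2 or Nav-Tsc2 mouse 1, 2 or 3 (adjusted p of 0.0547 to 0.0691 by edgeR). Kcnk4 lost it without control mouse 1 or 2 or any Nav-Tsc2 mouse (0.0570 to 0.0878), and its log2 fold change was -1.06 without control mouse 2. Kcnk10 lost it without control mouse 2 or Nav-Tsc2 mouse 2 or 3 (0.0569 to 0.0666). With the 24 libraries fitted singly and a random term per mouse, Kcnk2 and Kcnk10 were not called (limma adjusted p = 0.255 and 0.328) and Kcnk4 was.

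Tmem63c, a relative of the stretch-gated OSCA channels, rose from 17.8 ± 3.90 to 30.5 ± 2.00 CPM (log2 fold change 0.78, adjusted p = 0.0113 by edgeR). Trpv1, the heat and acid sensor of nociceptors, was 231.0 ± 86.2 and 156.9 ± 66.5 CPM and overlapped (log2 fold change -0.56, adjusted p = 0.248 by edgeR). Pacc1, a proton-activated chloride channel, was 37.5 ± 7.74 and 45.1 ± 6.05 CPM. The median over the 10 tested was -0.28.

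Of 4 proton-sensing receptors, 2 were tested. Gpr4 fell from 2.85 ± 2.45 to 0.467 ± 0.154 CPM (log2 fold change -2.60, adjusted p = 0.0241 by edgeR), and its highest control value, 6.26 CPM, came from control mouse 3. Without that mouse, or without Nav-Tsc2 mouse 1, 2 or 3, the call was lost (adjusted p of 0.0574 to 0.0707 by edgeR), and without control mouse 3 the log2 fold change was -1.87. The fit with a random term per mouse did not call it either (limma adjusted p = 0.159). None of the 4 degenerin and ENaC relatives, Asic5, Scnn1a, Scnn1b and Scnn1g, had enough counts to test.

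**Figure D4:**
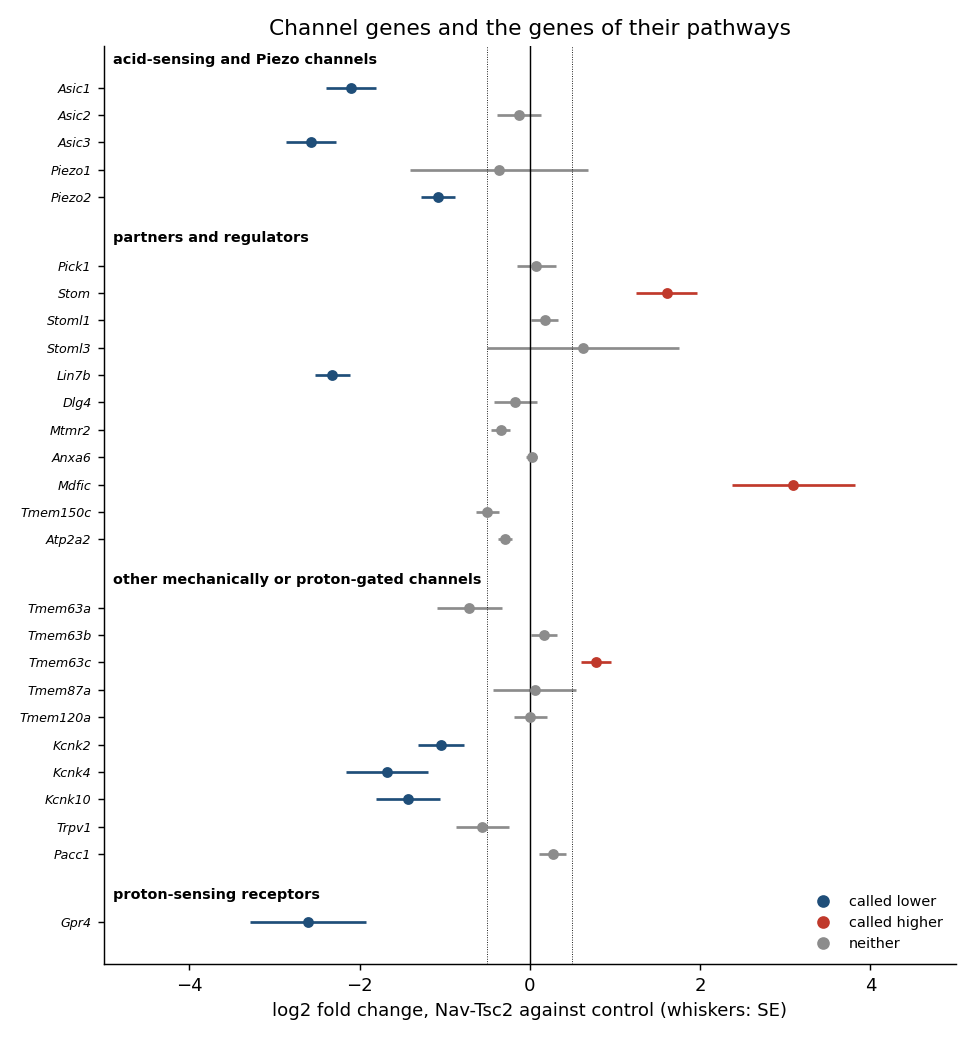
Log2 fold change (horizontal axis, Nav-Tsc2 against control, whiskers SE, dotted lines at the limits of a call) of the tested members and of the tested pathway genes that are reported here. Asic1, Asic3, Piezo2, Lin7b, Kcnk2, Kcnk4, Kcnk10 and Gpr4 were called lower, and Stom, Mdfic and Tmem63c higher.

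Markers of neuron types moved beside the members. Among peptidergic nociceptor markers, Calca was lower (log2 fold change -1.99, edgeR adjusted p = 0.00215) and Tac1 was not called. In control mice 1 to 4 Calca was 13470, 14630, 6039 and 6511 CPM, higher in the males as were Asic3 and Asic1. Of 8 markers of myelinated mechanoreceptors and proprioceptors, Ldhb was lower and the other 7 were not called. The sum of all 8 was 994.5 to 1406 CPM in control and 741.6 to 961.0 CPM in Nav-Tsc2 mice. Most of it was Nefh (means of 662.4 and 485.7 CPM) and Ldhb (403.0 and 231.0 CPM). Pvalb, Spp1 and Necab2 had positive log2 fold changes (2.36, 2.19 and 0.27).

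Of 4 nonpeptidergic markers, none was called. Their sum was 217.8 to 894.3 CPM in control and 1020 to 1185 CPM in Nav-Tsc2 mice. Mrgprd, with means of 158.8 and 537.0 CPM, differed most within it. P2rx3, Gfra2 and Lpar3 overlapped between the genotypes (log2 fold changes 0.53, 0.72 and 0.06). Of 4 low-threshold C fiber markers, Th was higher and the sum was 28.9 to 278.7 CPM in control and 163.6 to 1504 CPM in Nav-Tsc2 mice. The part of these markers in the values of Asic1, Asic3 and Piezo2 was not tested.

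Markers of non-neuronal cells were also counted. Of 7 endothelial markers, 3 were tested and Flt1 and Kdr were higher, and the sum was 12.1 to 21.5 CPM in control and 17.8 to 30.4 CPM in Nav-Tsc2 mice, with Cdh5, Cldn5 and Tie1 at or near 0 and Pecam1 at most 1.59 CPM in any mouse. Egfl7, which made up most of the control sum, was 16.5 ± 4.27 CPM in control and 13.8 ± 2.22 CPM in Nav-Tsc2 mice, and did not pass (log2 fold change -0.26). Of 7 macrophage markers, 4 were tested and Cx3cr1 was higher, with sums of 1.99 to 7.25 and 5.95 to 19.8 CPM. Csf1r, Aif1 and C1qb were not called (log2 fold changes 2.21, 0.34 and -1.60), and C1qa, Ctss and Tyrobp were too low to test. Of 4 mural cell markers, Pdgfrb and Acta2 were higher and Rgs5 and Cspg4 were not called, with sums of 4.54 to 46.7 and 19.8 to 150.5 CPM. No red blood cell, glial or fibroblast marker was called, and the 5 red blood cell markers summed to 1.63 to 2.80 and 0.473 to 0.672 CPM, the 7 glial markers to 468.1 to 686.4 and 410.5 to 640.6 CPM, and the 6 fibroblast markers to 73.1 to 236.5 and 121.0 to 196.3 CPM. Their part in the result was not tested.

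Genes that varied most like each member were sought over the 24 libraries, after the mean of each genotype was removed, among 8453 genes of at least 10 CPM. Libraries of a mouse share its cells and depth, so these correlations are descriptions. For Asic3 they were D930028M14Rik (Pearson r = 0.84), Fam81a (0.83) and Map7d2 (0.83), all 3 also called lower in Nav-Tsc2 mice. For Asic1 they were Lgals8 (0.81), Nelfcd (0.80) and Ncs1 (0.80), the last a neuronal calcium sensor, and the last 2 were called lower. For Piezo2 they were Fmnl1 (0.79), Cacnb4 (0.79), a calcium channel subunit that was called lower, and Ccdc141 (0.78). For Asic2 they were Kcnab1 (0.88), Rxrb (0.88) and Grik1 (0.87), none of them called. Among the members themselves, Asic2 and Piezo2 had the highest r (0.66), followed by Asic1 and Asic3 (0.45), and Asic1 and Asic2 had -0.39. Differences between mice and between sexes were not removed from these r values. Asic2 and Piezo2 were both higher in the control females, and Asic1 and Asic3 were both higher in the control males. Library A of control mouse 3, with low Asic1 and Asic3 and the highest Asic2, was included. Its weight in these r values was not tested.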

How the data were processed

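Reads were aligned by the authors to mm10 with STAR and counted with HTSeq, and the deposited values are raw counts per gene and library; versions and the strand setting are not given in the sources used here. A table of the authors' own comparison was not used. In the count files 47224 of 47643 identifiers matched a symbol, and 47.6 to 55.9% of reads per library were not on genes and stayed out of library sizes. The 3 libraries of each mouse were summed. The sums were tested with edgeR 4.0.16 (R 4.3.3; TMM, filterByExpr, quasi-likelihood F-test), and each SE was derived from the fold change and its F statistic. Alternatives used DESeq2 1.42.0 and limma 3.58.1. Lengths and positions came from GENCODE vM21 (GRCm38), and promoter windows from RefSeq, which matched 4 of 6 members. Named genes are the members, the called genes of the lists with selected uncalled ones, and for each member of at least 5 CPM the 3 genes of at least 10 CPM with the highest correlation. Uncalled pathway genes named with values were picked after their values were seen. The members and lists were chosen with earlier results of these data known. The tests were tried on simulated counts, with outcomes not reported here. The interaction was simulated only with a larger effect than any member showed. Mice are the replicates. Some genes of the lists are not reported here.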

Additional observations from a re-analysis of the deposited data

Results flagged for a closer look

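Piezo1 was 0.169 CPM in Nav-Tsc2 mouse 4, apart from the other Nav-Tsc2 mice (0.318 to 0.329 CPM). It was the only value standing apart among 10 groups of 4 mice, where chance gives about 0.5, and it rests on 10 counts.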

How the results depend on the processing

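Asic1, Asic3 and Piezo2 were called lower in each of 17 alternative fits, with log2 fold changes of -2.29 to -1.81, -2.76 to -2.38 and -1.21 to -0.93 and highest adjusted p values of 0.0420, 0.00629 and 0.0202 (edgeR, DESeq2 or limma). Leaving out mice gave -0.29 to 0.12 for Asic2 and -0.77 to 0.52 for Piezo1, positive without control replicate 3 (0.12) and without control replicate 2 (0.52). In a limma fit of the 24 libraries with a random term per mouse Asic2 was 0.045. DESeq2 called 5 pathway genes higher and the limma fit 2 lower. Without single mice 1 to 5 were lower and 2 to 4 higher; the fewest lower came without Nav-Tsc2 replicate 2 and the fewest higher without Nav-Tsc2 replicate 3. Without the low-count filter the sex interactions of Asic2 (0.98) and Asic3 (-1.29) passed. The order by length-scaled level was the same with the longest coding transcript and without each mouse.

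With the replicate number as a block Piezo1 was 0.30 and its sex interaction 1.59; the block changed no member's call, and Kcnk2 and Gpr4 lost theirs. Whether the numbers pair the mice depended on the genes used. Correlations of same-numbered mice were -0.02, 0.08, -0.07 and 0.05 over the 4808 genes chosen first (mean log2 CPM over 5), and 0.18, 0.19, 0.11 and 0.20 over 8445 genes of at least 10 CPM. Of 14 such choices tried, 2 put every pair over 0.1, so the numbers were not taken to pair the mice.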

Other observations

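Piezo1 was seen in more Nav-Tsc2 than control libraries although its summed level was not higher. At least 1 count was present in 5 of 12 control and 12 of 12 Nav-Tsc2 libraries, and the numbers per mouse were 0, 2, 2 and 1 against 3 in every Nav-Tsc2 mouse (exact permutation test over mice, two-sided, p = 0.0286, the smallest that 4 against 4 allows). This was noticed in the data and then tested on them. Thinned to 8339220 counts each, the expected numbers were 4.81 and 9.53 of 12. Such a separation in the same direction held for 6.67% of the 5745 genes with 50 to 500 counts in all, and libraries had 15925 to 18544 genes with a count in control and 17891 to 20466 in Nav-Tsc2 mice. Control counts were few and uneven, with 42 of the 78 in library A of control mouse 2. Nav-Tsc2 counts were also few, 64 in all, and every Nav-Tsc2 mouse had a library with only 1 count. Counts per library were 2, 1 and 13 in Nav-Tsc2 mouse 1 and 4, 13 and 1 in mouse 2. They were 18, 1 and 1 in mouse 3 and 1, 4 and 5 in mouse 4. When at least 3 counts were needed in a library, the numbers per mouse overlapped between the genotypes.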
